A study of Rattus norvegicus with 6 samples.

Results

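The protein kinase C and D family was examined on arrays of neonatal rat ovary through 9 genes, namely Prkca, Prkcb, Prkcd, Prkce, Prkch, Prkci, Prkcq, Prkcz and Prkd3. Members were taken as every non-control probe whose RefSeq accession belonged to one of these genes. This gave 12 probes for 7 of the 9 genes, among 30367 probes and 15154 named genes on the array. Prkca and Prkcq were not matched to a probe and are not described further.

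The groups were ovaries of Wistar rat pups that had been injected intraperitoneally with 0.05 mg/kg LPS (lipopolysaccharide, an outer membrane component of Gram-negative bacteria) from Salmonella Enteritidis, and ovaries of pups that had received the same volume of saline. Both groups received 2 injections, on postnatal day (PND) 3 and again on PND 5, and their ovaries were taken on PND 7. There were 3 arrays for each treatment, each labelled as a biological replicate. Whole litters were assigned to a treatment and each group came from 2 litters, so litter and treatment cannot be told apart, some arrays of a group share a litter, and p-values measure only the spread between these arrays, and the arrays measured whole ovaries, in which fewer cells of a type and less RNA per cell cannot be told apart.

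Protein kinase C enzymes are serine and threonine kinases that carry signals from the cell membrane. The classical isoforms, such as PKCα and PKCβ, need calcium and diacylglycerol, the lipid that phospholipase C releases from the membrane. The calcium-independent isoforms PKCδ, PKCε, PKCη and PKCθ need diacylglycerol alone, and the atypical isoforms PKCι and PKCζ need neither and act with polarity proteins. Protein kinase D enzymes bind diacylglycerol and are themselves switched on by protein kinase C. In the ovary these kinases are known from oocyte activation and from the response to gonadotropins, and in immune cells several of them act downstream of receptors for microbial products.

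The study designed PCR primers for 3 of the member transcripts, which are those that the brighter probe of Prkcb, the probe of Prkcz and all 3 probes of Prkd3 are annotated to. They are shown because they are listed under the same transcript as these array probes. No primer was aligned to a probe. The PCR values were not used here. All 6 primers are 20 bases long, with 45.0% to 55.0% G and C, and are written 5′ to 3′.
Prkcb forward: atcagccctacgggaagtct
Prkcb reverse: cgttgtgctccatgattgac
Prkcz forward: cgctgggtgtccttatgttt
Prkcz reverse: aggccttgacagacaggaaa
Prkd3 forward: aaatgtgctgcttgcatctg
Prkd3 reverse: agaacctcgggggctaagta

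Values are the log2 of the background-subtracted spot intensity minus the 75th percentile of the same array, so that 0 is the level below which 75% of that array's probes lie. A probe was taken to clear the background on an array when the scanner software had marked over 0.5 of its unflagged spots as well above background. Different probes bind with different strength, so levels were compared only within a probe. The plot of the 12 probes by array shows that the brighter probe of Prkcb was the one with separated groups among the 7 probes that cleared the background on every array.

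**Figure D1:**
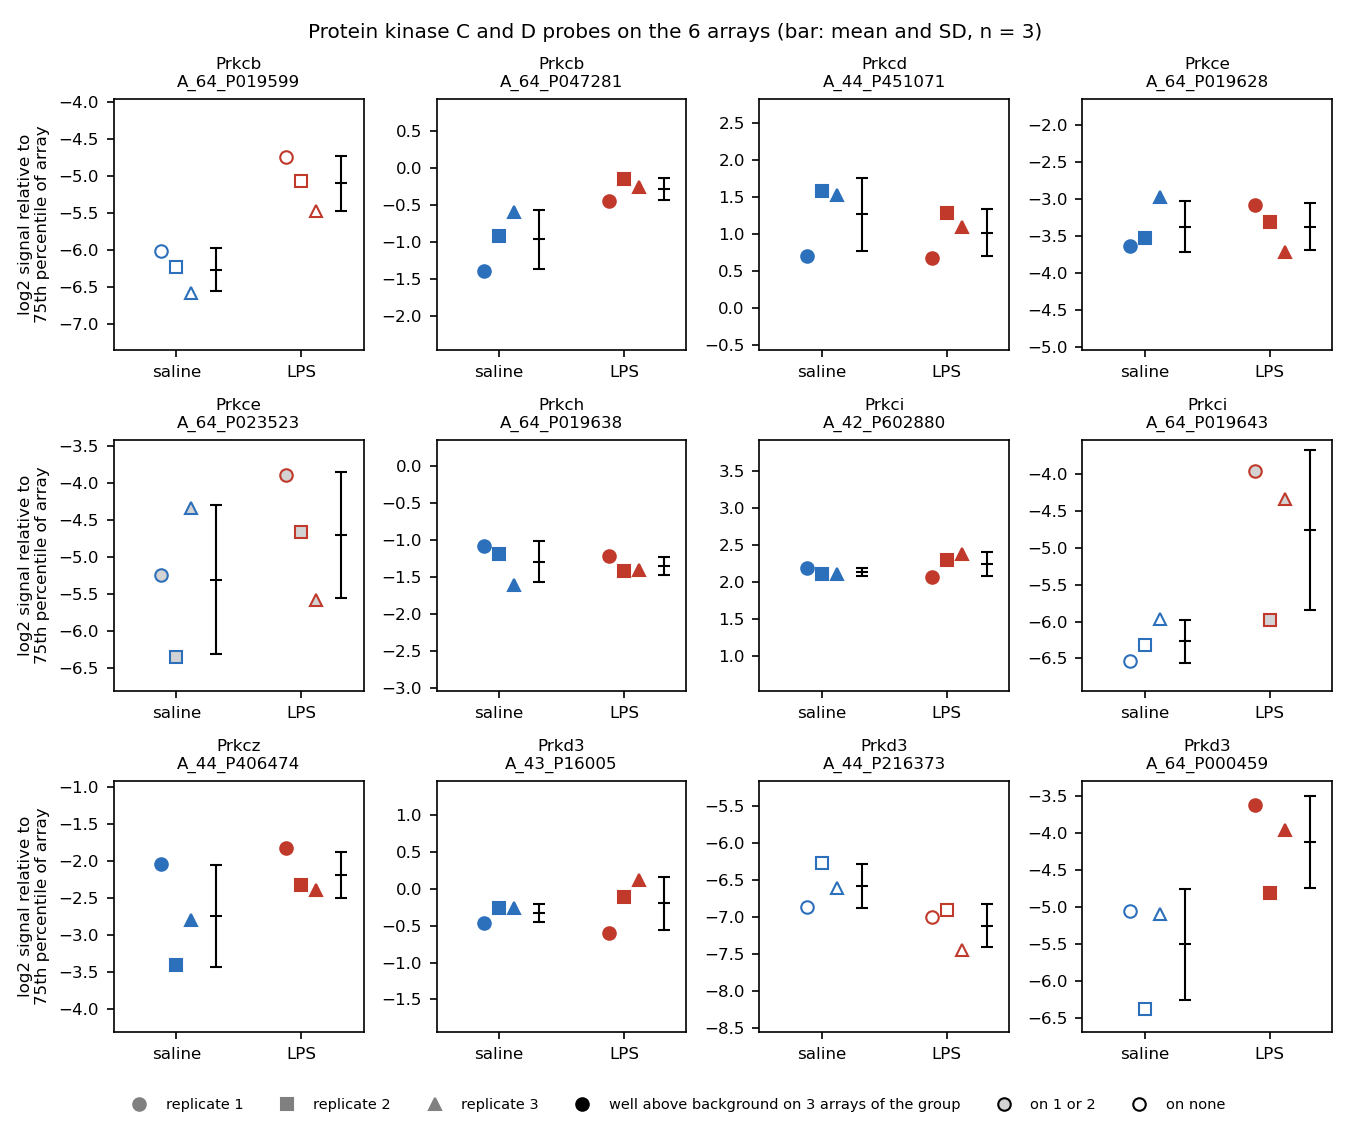
Scaled log2 signal (y axis, 75th percentile of each array at 0, the same height of 3.4 log2 units in every panel) on the 3 saline arrays (blue) and 3 LPS arrays (red) for the 12 probes; bars give the mean and SD of 3 arrays and the fill gives the number of arrays of that group on which the probe cleared the background. The brighter probe of Prkcb (A_64_P047281) lay from -0.45 to -0.15 on the LPS arrays and from -1.39 to -0.60 on the saline arrays, whereas Prkcd, Prkch and Prkci (A_42_P602880) overlapped.

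The arrays differed in ways that touch these values. The 8 markers of adrenal cortex had a mean log2 level of 3.52 and 3.57 on saline replicates 2 and 3, against -3.84 on saline replicate 1 and -4.25 to -3.60 on the LPS arrays, and the 9 adrenal medulla markers with a probe were likewise at 2.44 and 1.36 against -3.07 and -3.72 to -3.14. Macrophage markers lay from -1.24 to -1.18 on the LPS arrays and from -1.61 to -1.35 on the saline arrays, and 10 of their 14 genes cleared the background on all arrays and 4 were called higher at an unadjusted p under 0.05, as were 2.45% of named genes. All 9 oocyte markers with a probe cleared the background on all arrays, as did 8 of 9 granulosa cell markers, so the defining markers of the labelled tissue were present. The share of spots marked well above background was 72.4% to 76.0% on LPS arrays and 66.3% to 70.4% on saline arrays, and LPS replicates 2 and 3 lay in a different row of the slide from the other 4 arrays.

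No member probe passed after adjustment over all 30367 probes (limma, smallest adjusted p = 0.271), a call that 0.0% of all probes reached. At an unadjusted p under 0.05, 4 of the 12 member probes were called, all higher in LPS-treated ovaries, where 2.46% of all probes were called higher and 14.1% lower. In either direction 16.5% of all probes were called. Of the 4 member probes, 1 cleared the background on all arrays and the other 3 cleared it on no saline array. Among the 7 member probes that cleared it on all arrays 1 was called, against 4.08% of the 17613 such probes (1.69% higher). Of probes that cleared it on at least 1 LPS array and no saline array, as 2 of the 3 dim ones did, 12.8% were called higher, and of those that cleared it nowhere, as the other one did, 0.874%. The 2-fold criterion with an unadjusted p under 0.05 was met by 3 member probes, against 0.613% of all probes called higher and 1.69% either way, and these were the same 3 dim probes. With normexp background correction (a model of signal plus background) or without background subtraction 0 met it.

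Prkcb encodes PKCβ, the classical isoform that is abundant in immune cells and has been linked to oocyte activation. Its brighter probe, A_64_P047281, read -0.45, -0.15 and -0.26 on LPS replicates 1, 2 and 3 and -1.39, -0.92 and -0.60 on saline replicates 1, 2 and 3. All 3 LPS arrays were above all 3 saline arrays, which held for 5.53% of the probes with a signal over background on every array (11.4% with either group on top). The unscaled intensities were 2480, 3700 and 4580 with LPS and 910, 2450 and 2110 with saline. Means were -0.29 ± 0.15 (SD, n = 3) and -0.97 ± 0.40 (SD, n = 3). The difference was 0.68 on the log2 scale (standard error 0.24, 95% interval 0.10 to 1.25), or 1.60-fold, with an unadjusted p of 0.0271 and an adjusted p of 0.274 from limma. The two-sided exact permutation test gave p = 0.1, the smallest that 3 against 3 arrays can give.

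The sign of the Prkcb difference held with each array left out, from 0.47 without saline replicate 1 to 0.86 without saline replicate 3. Its unadjusted p from limma was above 0.05 without saline replicate 1, saline replicate 2, LPS replicate 2 or LPS replicate 3. It was also above 0.05 when the slide row was a block in the fit, where the difference was 0.52. Without the 2 saline arrays that were high in adrenal markers, the difference from the remaining saline array was 1.10. The mean macrophage marker level, too, was higher with LPS on every array than with saline on any, and their part in the Prkcb value was not tested. B cell markers ranged from -4.01 to -3.09 on LPS arrays and from -3.69 to -3.51 on saline arrays. Granulosa cell markers were at -0.15, 1.19 and 0.89 on LPS replicates 1, 2 and 3 and at 0.24, 0.1 and 0.75 on saline replicates 1, 2 and 3. Oocyte markers ranged from -0.89 to 0.41 with LPS and from -0.86 to -0.01 with saline. The part of these cell types in the Prkcb value was not tested either.

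The other probe of Prkcb, A_64_P019599, is annotated to a different transcript of the gene. It cleared the background on no array, so that no fold change is given. Its log2 signal was -4.74, -5.07 and -5.48 with LPS against -6.01, -6.23 and -6.58 with saline. All LPS arrays were above all saline arrays, as at 5.02% of all probes. The unadjusted p of this probe was 0.00291 with an adjusted p of 0.271 (limma). It was not called with normexp background correction or without background subtraction, where the fitted log2 difference was 0.14 and 0.02.

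Among the calcium-independent isoforms, none of the 4 probes was called. Prkcd encodes PKCδ, which acts in cell death and in signaling from immune receptors. Its probe read 0.68, 1.29 and 1.10 with LPS against 0.71, 1.58 and 1.53 with saline. Saline replicate 1 lay among the LPS arrays, and the groups overlapped. The difference was -0.25 (standard error 0.30, 95% interval -0.96 to 0.47, adjusted p = 0.843 from limma). It was 0.32 with saline replicate 1 as the only saline array.

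Prkce encodes PKCε and was measured by 2 probes. The brighter, A_64_P019628, read -3.08, -3.31 and -3.72 with LPS against -3.63, -3.52 and -2.97 with saline. The means were -3.37 in both groups, and the 95% interval of the difference ran from -0.62 to 0.63. The dimmer, A_64_P023523, cleared the background on 2 LPS arrays and 1 saline array, and ranged from -5.58 to -3.89 and from -6.35 to -4.34 (difference 0.60, standard error 0.61).

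Prkch encodes PKCη, which is typical of epithelia. It read -1.22, -1.42 and -1.41 with LPS against -1.08, -1.19 and -1.61 with saline. The highest and the lowest value were both in the saline group. The difference was -0.05 (95% interval -0.53 to 0.42), so that a change of 2-fold either way lies outside the interval.

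The atypical isoforms differed from each other on the saline arrays. Prkci encodes PKCι, a partner of the PAR polarity proteins, and its brighter probe, A_42_P602880, was the steadiest of the 12. It read 2.07, 2.30 and 2.38 with LPS against 2.20, 2.11 and 2.11 with saline. The means were 2.25 ± 0.16 (SD, n = 3) and 2.14 ± 0.05 (SD, n = 3), with a 95% interval of the difference from -0.28 to 0.51. The other probe of Prkci, A_64_P019643, cleared the background on 2 LPS arrays and no saline array, with -3.96, -5.98 and -4.34 against -6.53, -6.32 and -5.96. LPS replicate 2 fell within the saline range. The 2 spots of this probe read -6.69 and -5.28 on LPS replicate 2 and -6.63 and -5.30 on saline replicate 3. The probe's unadjusted p was 0.024 and its adjusted p 0.271 (limma), and against the lowest measurable signal of the saline arrays no bound above 1 was left. The two-sided exact permutation test gave p = 0.2. With normexp background correction, without background subtraction and in the methods' t-test the unadjusted p was above 0.05. So it was in limma without saline replicate 1, saline replicate 2, LPS replicate 1 or LPS replicate 3.

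Prkcz encodes PKCζ, which acts in insulin signaling and in the NF-κB pathway. It read -1.83, -2.33 and -2.40 with LPS against -2.04, -3.41 and -2.80 with saline. Saline replicates 2 and 3 were below all LPS arrays, and saline replicate 1 was among them. The difference was 0.56 (standard error 0.37, 95% interval -0.32 to 1.45, adjusted p = 0.568 from limma). It was 0.92 without saline replicate 1, where its unadjusted p from limma was under 0.05, and -0.15 without saline replicates 2 and 3. The 2 saline arrays that were low for Prkcz and high for Prkcd were those with high adrenal markers, whose part in these values was not tested. Saline replicate 1 was nearer to the LPS mean than to the other saline arrays at 6 of the 12 probes, among them Prkcd, Prkch and Prkcz.

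Prkcd, Prkci and Prkcz each had a probe printed on 10 spots of every array, which gives the measuring error within an array and leaves out that of labeling and hybridization. For Prkcd the SD among spots of an array was 0.0810, and the SD between arrays of a group was 0.412, a ratio of 5.09. For Prkci the SDs were 0.0498 and 0.120, and for Prkcz 0.246 and 0.534. The wider spread among Prkcz spots came largely from saline replicate 1, where 1 spot read -3.53 and the other 9 lay from -2.25 to -1.75. The plot of single spots shows this spot and the order of the arrays.

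**Figure D2:**
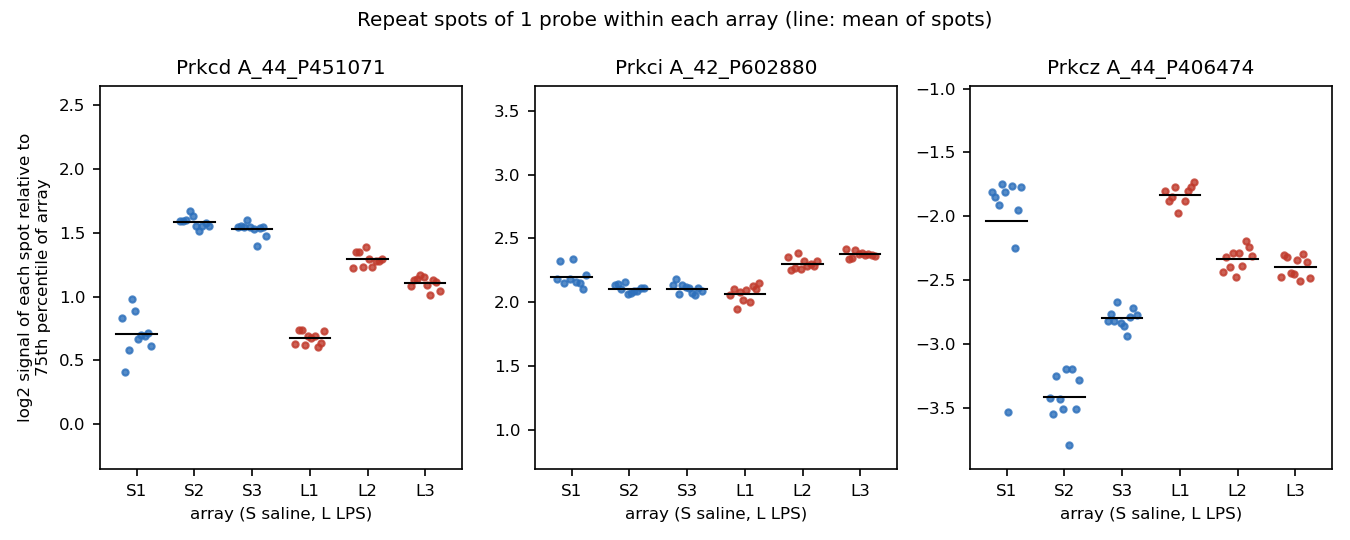
Log2 signal of each of the repeat spots (y axis, relative to the 75th percentile of the array, 3 log2 units in each panel) on saline (S, blue) and LPS (L, red) arrays, with a line at the mean of the spots. Prkcd spots of saline replicate 1 (0.41 to 0.98) and LPS replicate 1 (0.61 to 0.74) lay below those of the other 4 arrays (1.01 to 1.67), and 1 Prkcz spot of saline replicate 1 stood apart at -3.53.

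Prkd3 encodes PKD3, a protein kinase D that has been studied in secretion and cell growth, and its 3 probes gave 3 different orders. The brightest, A_43_P16005, read -0.60, -0.12 and 0.11 with LPS against -0.47, -0.26 and -0.26 with saline, and the groups overlapped (difference 0.13, 95% interval -0.41 to 0.66). The second, A_64_P000459, cleared the background on all 3 LPS arrays (-3.61, -4.81 and -3.95) and on no saline array (-5.05, -6.37 and -5.09). With the deposited background subtraction the LPS mean was at least 1.25-fold above the saline mean on these arrays. This bound was between 1.05 and 1.59 with any single array dropped. It takes no account of the spread between arrays and exists only where a probe cleared the background in either group but not both. The probe's unadjusted p was 0.0211 and its adjusted p 0.271 from limma. With normexp background correction its fitted log2 difference was 0.29 and without background subtraction 0.12, both smaller than the log2 of this bound. The unadjusted p was then above 0.05, as in the methods' t-test and without saline replicate 2, LPS replicate 1 or LPS replicate 3. The bound sets the LPS mean against, on each saline array, the higher of the probe's own signal and the lowest signal of any probe that cleared the background.

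The third Prkd3 probe, A_44_P216373, cleared the background on no array and read -7.00, -6.90 and -7.45 against -6.87, -6.27 and -6.61. Here the LPS arrays were below the saline arrays, as at 18.4% of all probes, and the order of the means turned with normexp background correction. Its unadjusted p from limma was above 0.05. It was under 0.05 with the replicate number as a block (adjusted p = 0.235) and without saline replicate 1 (adjusted p = 0.191).

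**Figure D3:**
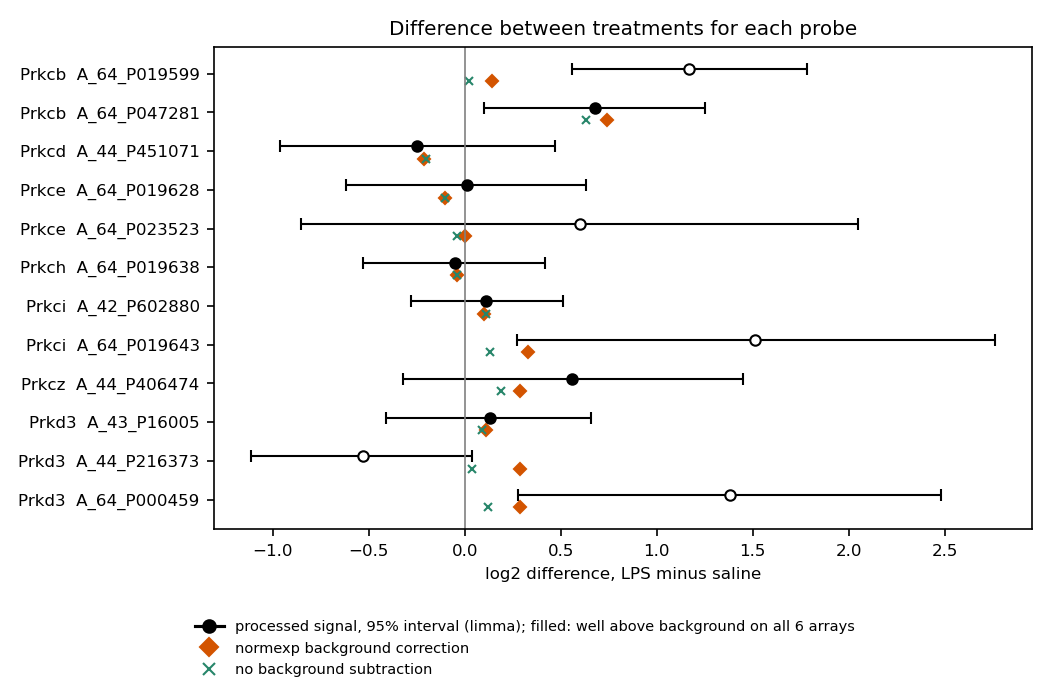
Log2 difference, LPS minus saline (x axis), of each probe with its 95% interval from limma (circles, filled where the probe cleared the background on all 6 arrays), with the same difference after normexp background correction (diamonds) and without background subtraction (crosses). Hollow circles are fitted values of probes that did not clear the background on at least 1 array. They do not measure the size of a change. All of them lay away from their crosses, most of all Prkcb (A_64_P019599), Prkci (A_64_P019643) and Prkd3 (A_64_P000459). Prkce (A_64_P023523) and Prkd3 (A_44_P216373) had their crosses on the other side of 0. Prkcb (A_64_P047281) stayed between 0.63 and 0.74.

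Over the family, 9 of the 12 probes had a positive difference and the median was 0.35, beside 44.8% positive and a median of -0.04 over all probes. Leaving out those that cleared the background on no array gave 10 probes. Those that cleared it in only 1 group were set at their bound, or at no difference where no bound was left. The others kept their fitted difference, and the median was 0.12. Among the 7 probes that cleared it on all arrays 5 were positive with a median of 0.11, beside 53.6% and 0.02 over all such probes. LPS arrays lay above saline arrays without overlap at 3 member probes and below at 1, where 5.02% and 18.4% of all probes did so (23.4% together).

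The genes around these kinases were followed in 5 lists of 66 symbols, some of them older names of a listed gene, and 49 had a probe. None passed after adjustment, and at an unadjusted p under 0.05 on the brightest probe 1 was higher and 4 were lower, where 2.45% of the 15154 named genes were higher and 13.2% lower (15.6% together). Of the 49, 24 had a positive difference, and the median was -0.00 (-0.03 over all named genes). Of the 12 phospholipase C genes, which produce diacylglycerol, all had a probe, 0 were called and 6 were positive (median 0.02). Plce1 and Plcl1, the latter a relative without catalytic activity, had differences of 0.38 and -0.44 (standard error 0.27 for both). The unadjusted p from limma was under 0.05 for Plce1 without saline replicate 1 and for Plcl1 with normexp.

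Diacylglycerol kinases remove the lipid that activates classical and calcium-independent isoforms, and 5 of the 10 had a probe. Of these 3 were called lower, where 13.2% of named genes were. Dgka cleared the background on all arrays, with -0.71, -0.52 and -0.56 with LPS against -0.28, -0.00 and -0.05 with saline. The groups did not overlap (11.4% of probes over background on all arrays did not), and the difference was -0.49 (standard error 0.17, unadjusted p = 0.0246, adjusted p = 0.271 from limma). It was -0.11 without normalization between arrays and -0.32 without the 2 saline arrays high in adrenal markers. The unadjusted p was above 0.05 in both and with any array but saline replicate 1 left out. Dgkb and Dgki cleared the background on no array, and of all such probes 47.5% were called in either direction. Dgkz differed by 0.01.

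Of the other kinases of the family and those that phosphorylate it, 6 of 9 had a probe and 0 were called. Prkd2, another protein kinase D, differed by 0.00. Pdpk1, the kinase that primes the activation loop, differed by -0.09, and Mtor by 0.14.

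Of 16 symbols of anchors and partners 12 had a probe. It cleared the background on all arrays for each of them, and 0 were called (7 positive, median 0.14). Gnb2l1 and Prkcdbp, listed without a probe, are older symbols of Rack1 and Cavin3, which had a probe. Pard6b, a polarity protein that binds the atypical isoforms, read -1.74, -1.71 and -1.96 with LPS against -2.05, -2.68 and -2.07 with saline. These did not overlap, with a difference of 0.46 (standard error 0.23, unadjusted p = 0.0827, adjusted p = 0.372 from limma). Cavin3, which binds PKCδ, did not overlap either, with a difference of 0.25 (adjusted p = 0.577 from limma). LPS arrays lay above saline arrays in this way at 5.53% of probes over background on all arrays. The unadjusted p of Cavin3 from limma was under 0.05 with normexp, without background subtraction and with quantile normalization. That of Pard6b was under 0.05 without normalization between arrays.

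Of 19 substrates and downstream genes 14 had a probe and 5 were positive (median -0.05). Nrgn, encoding the calmodulin-binding substrate neurogranin, read 1.72, 1.46 and 1.07 with LPS against 1.05, 0.37 and 0.63 with saline. Every LPS array was above every saline array, by 0.74 on average (standard error 0.26, unadjusted p = 0.0258, adjusted p = 0.272 from limma), an order that 5.53% of probes over background on all arrays had. The difference was 0.37 without the 2 saline arrays high in adrenal markers. There, in the methods' t-test and without saline replicate 2, saline replicate 3, LPS replicate 1 or LPS replicate 2, the unadjusted p was above 0.05. Gap43, a related substrate of growing axons, differed by -0.53 (standard error 0.48). The Gap43 difference was -0.08 without saline replicate 2. It was -1.07 without saline replicate 3, where its unadjusted p from limma was under 0.05. Rasgrp1, a diacylglycerol-binding activator of Ras, was called lower but cleared the background on no array.

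**Figure D4:**
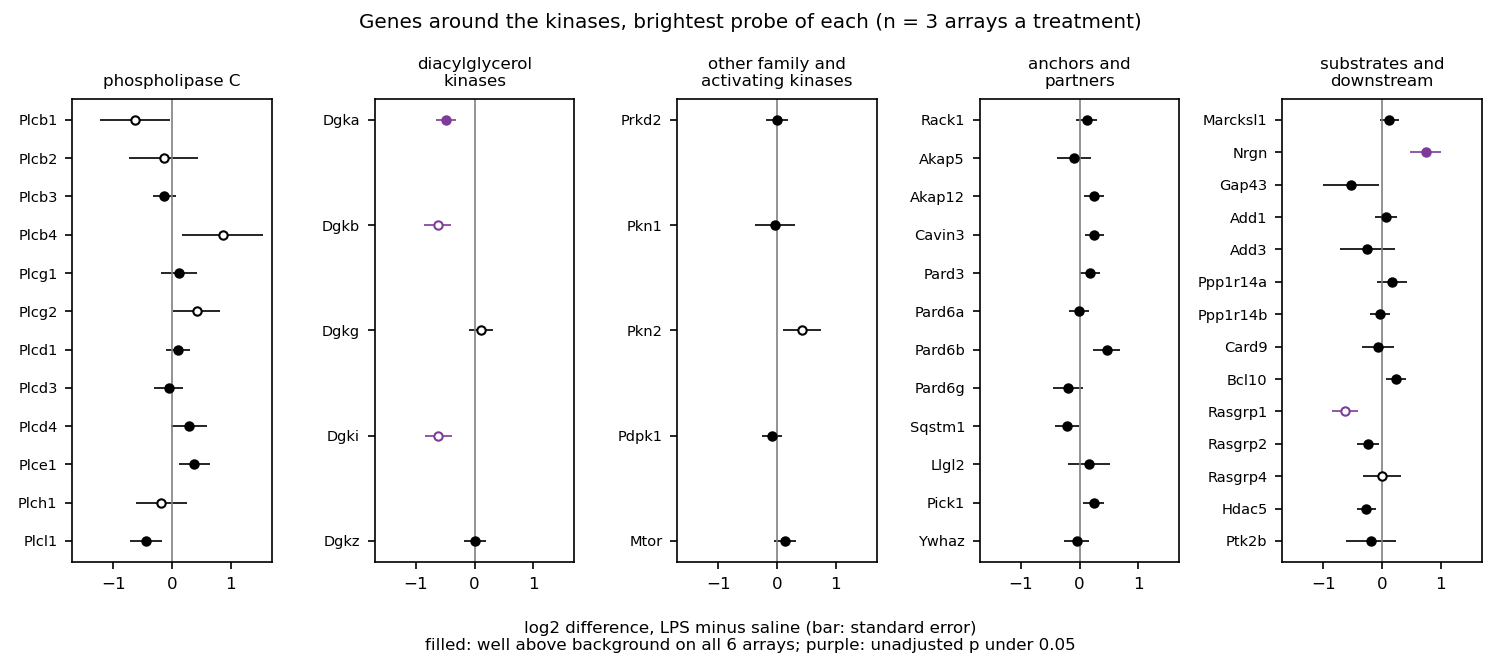
Log2 difference, LPS minus saline (x axis), with its standard error for the brightest probe of genes in the 5 lists; filled points cleared the background on all 6 arrays and purple points had an unadjusted p under 0.05. Nrgn (0.74) was the one purple gene above 0, and Dgka (-0.49) the one filled purple gene below 0.

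The genes most like the members across the 6 arrays were found by Pearson correlation over 11166 named probes that cleared the background on all arrays, for the member probe of each class with the smallest p among those that cleared it as well. They are a description over 6 arrays that share treatment, tissue makeup and scaling. The brighter Prkcb probe was closest to Kitlg (r = 0.983), Med29 (r = 0.982) and Ubqln4 (r = 0.978), and 37 probes had an r above 0.95. Kitlg is on the list of granulosa cell markers. The mean of that list overlapped between the groups, with -0.15 to 1.19 on LPS arrays and 0.10 to 0.75 on saline arrays. Any relation of Prkcb to this cell type was not tested. Prkcd was closest to Npw (r = 0.995), Cdc42se2 (r = 0.994) and Ogfod1 (r = 0.993), with 225 probes above 0.95. Prkcz was closest to Epb41l5, Arg2 and Blnk (r = 0.994, 0.994 and 0.993), with 154 above 0.95, and the brightest Prkd3 probe to Kbtbd2, Kif13a and Adar (r = 0.995, 0.995 and 0.990), with 106.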

How the data were processed

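Ovarian RNA was measured on 6 single-colour Agilent arrays on 1 slide, 3 for each treatment, grouped by the labels. The methods give 5 animals from 2 litters per treatment, and which animals or litters fed each array was not used. The authors deposited intensity values of each spot from Agilent Feature Extraction 10.5.1.1, with background subtracted and a surrogate for dim spots. Their table of the whole study holds the same intensity values within 0.497%, and the submitters' processing notes name lumi. No spot was saturated. The negative controls were out of the software's range on all 6 arrays.

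Probes were named through their RefSeq accessions, which gave a symbol to 17998 of 30367 probes. Flagged spots were dropped, spots of a probe were averaged, and log2 values of the deposited intensity were set relative to the 75th percentile of each array. Probes needed 2 unflagged arrays a group. limma 3.58.1 (lmFit, eBayes) in R 4.3.3 compared the treatments without a covariate, two-sided, with Benjamini-Hochberg adjustment over all probes. The code was checked on simulated data. Alternatives changed the background correction, the normalization, the source table, dim and flagged spots, the test (an equal-variance test called the methods' t-test, standing for the analysis of variance named in the methods), the block, the probe and the arrays used. All member probes are named, with every pathway gene at an unadjusted p under 0.05 and, of the others, those among the 2 largest differences of each list well above background on all arrays. Prkd2 was added after its value was seen. One listed gene is counted but not reported by name here. For pathway genes the brightest probe was used.

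Same-numbered arrays of the 2 treatments deviated together (correlations 0.298, 0.215 and 0.254), which rests on the values alone. Those of unlike-numbered arrays ran from -0.271 to 0.16, and whether the arrays were paired was not tested. Members and lists were chosen with earlier results of these data known. The number of arrays limits the precision.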

Additional observations from a re-analysis of the deposited data

How the results depend on the processing

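No member or pathway gene passed after adjustment under any of the 17 other settings with an adjusted p, of which the one without saline replicates 2 and 3 was chosen after seeing the data and leaves a lone saline array that is assumed to vary like the others. The 4 member probes at an unadjusted p under 0.05 became 1 with normexp, without background subtraction, in the methods' t-test and without saline replicates 2 and 3, 2 with the filter on dim probes and 6 without normalization (1 to 4 with an array left out). The 3 at the 2-fold criterion became 0 with normexp and without background subtraction, and 1 with the dim filter, the methods' t-test and without saline replicates 2 and 3, and 4 without normalization (0 to 3 with an array left out). The 1 called probe well above background on all arrays became 2 without normalization, 0 with the methods' t-test and the slide row (0 to 1 with an array left out). The 5 pathway genes became 3 without background subtraction, with quantile normalization, without normalization, in the methods' t-test, with the slide row and without saline replicates 2 and 3, and 2 with the dim filter (0 without saline replicate 2 to 8 without saline replicate 1). With normexp the pathway count stayed at 5, but Cavin3 and Plcl1 were called in place of Dgkb and Rasgrp1. Without normalization the members' median was 0.72, where that of all probes rose from -0.04 to 0.34. With the replicate block 5 member probes were called, the added one being Prkd3 (A_44_P216373), and the block changed no other member call.

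Signs turned as follows. Prkcd was 0.13 without normalization and 0.32 without saline replicates 2 and 3. Prkce was -0.10 with normexp and without background subtraction, -0.03 with quantile normalization and -0.14 to 0.21 with an array left out (A_64_P019628), and -0.04 without background subtraction (A_64_P023523). Prkch was 0.32 without normalization, 0.08 with the slide row and -0.21 to 0.05 with an array left out. With the slide row Prkci (A_42_P602880) was -0.07 and Prkd3 (A_43_P16005) -0.27, the latter -0.03 to 0.32 with an array left out. Prkd3 (A_44_P216373) was 0.29, 0.04 and 0.07 with normexp, without background subtraction and with quantile normalization. Without saline replicates 2 and 3 Prkcz was -0.15 and Plce1 -0.16. With normexp, without background subtraction and with the slide row Dgkz was -0.08, -0.07 and -0.23, and Mtor -0.03, -0.05 and -0.07, Dgkz being -0.07 to 0.13 with an array left out. Pdpk1 was 0.03 with normexp and without background subtraction, 0.28 without normalization and -0.15 to 0.00 with an array left out.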
